A study of Mus musculus with 24 samples.

Results

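miR-143 and miR-145 are a pair of microRNAs (miRNAs) from neighbouring genes, and both entries were found by name (mir-143 and mir-145) in the deposited table, 2 of its 510 miRNAs. Small RNA was sequenced from mammary tissue of female mice on the FVB strain at weeks 6, 8, 10 and 12 of age. PyMT mice are heterozygous for the polyoma middle T oncogene under the MMTV promoter, which is active mainly in mammary epithelium, and their tissue was labelled, in order of age, hyperplasia, adenoma/MIN (mammary intraepithelial neoplasia), early carcinoma and late carcinoma. All of these are called tumor here, and the normal glands came from FVB control mice of the same ages without the transgene. Each genotype and week had 3 libraries from 3 mice, 24 libraries in all. The study's histology found normal gland cells in the tissue of the first pair of stages and few stromal, muscle or inflammatory cells in the carcinomas.

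The pair is processed from a shared primary transcript. It is abundant in smooth muscle, pericytes and other stromal cells and is found in the contractile myoepithelial cells around mammary ducts and alveoli. The transcript is under the control of serum response factor and its cofactor myocardin, and both miRNAs repress factors that keep smooth muscle in a dividing state, among them Klf4 and Elk1. In tumors of epithelial origin, including those of the breast and the colon, low levels of both have often been described.

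In mm9 both genes lie on the minus strand of chromosome 18, Mir143 at 61808850 to 61808912 and Mir145 at 61807470 to 61807557, with 1292 bases between the hairpins. Both are annotated as miRNA genes outside protein-coding genes. The nearest other gene of that annotation is the long non-coding RNA Gm16908, at 61810628 to 61825191 on the same strand, which RefSeq names Carmn or Mir143hg. The table holds no other miRNA annotated within 50 kb of them. Each table entry is a single count per name, so the arms of a hairpin cannot be told apart.

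Total counts ranged from 1032241 to 3931375 per library, and tumor libraries were on average shallower than normal ones. Normalized counts are given as CPM, counts scaled to a common library size with TMM factors over all libraries. The test was edgeR's quasi-likelihood test on the 237 miRNAs that passed its filter on low counts, with a threshold of 0.05 on the Benjamini-Hochberg adjusted p-value. At 158 to 4122 counts for miR-145 and 56024 to 959807 for miR-143, no library was near the detection floor of 3 counts.

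miR-143 was lower in tumor than in normal gland at each of the 4 weeks, and no tumor library reached the level of any normal library. In normal glands of week 6 it had 143444, 173975 and 170001 CPM in replicates 1, 2 and 3, against 94372, 89833 and 101496 CPM in the hyperplasia libraries. At week 8 the normal libraries had 226872, 170450 and 190766 CPM and the adenoma libraries 92099, 65865 and 93923 CPM. At both ages each tumor library lay below each normal library of its week. At week 10 the normal libraries had 213464, 227890 and 182557 CPM and the early carcinomas 64439, 94087 and 69614 CPM. At week 12 the normal libraries had 232693, 207682 and 255439 CPM and the late carcinomas 66227, 128680 and 65633 CPM. The second late carcinoma library was the tumor library closest to the normal range, while the other two were among the lowest of the series.

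miR-145 was lower in tumor at each week as well, and again the highest tumor library stayed under the lowest normal one. At week 6 the normal libraries had 586, 675 and 1030 CPM (replicates 1, 2 and 3), and the hyperplasia libraries 356, 304 and 366 CPM. At week 8 these values were 949, 848 and 1059 CPM in normal glands and 265, 186 and 379 CPM in adenomas. The lowest value of the series was that of the second adenoma library, which was also the shallowest. At week 10 the normal libraries had 1024, 979 and 863 CPM and the early carcinomas 275, 249 and 236 CPM, the tightest of the tumor groups. At week 12 the normal libraries had 791, 1046 and 748 CPM and the late carcinomas 231, 418 and 220 CPM, so that the second library was the high one for miR-145 too.

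**Figure D1:**
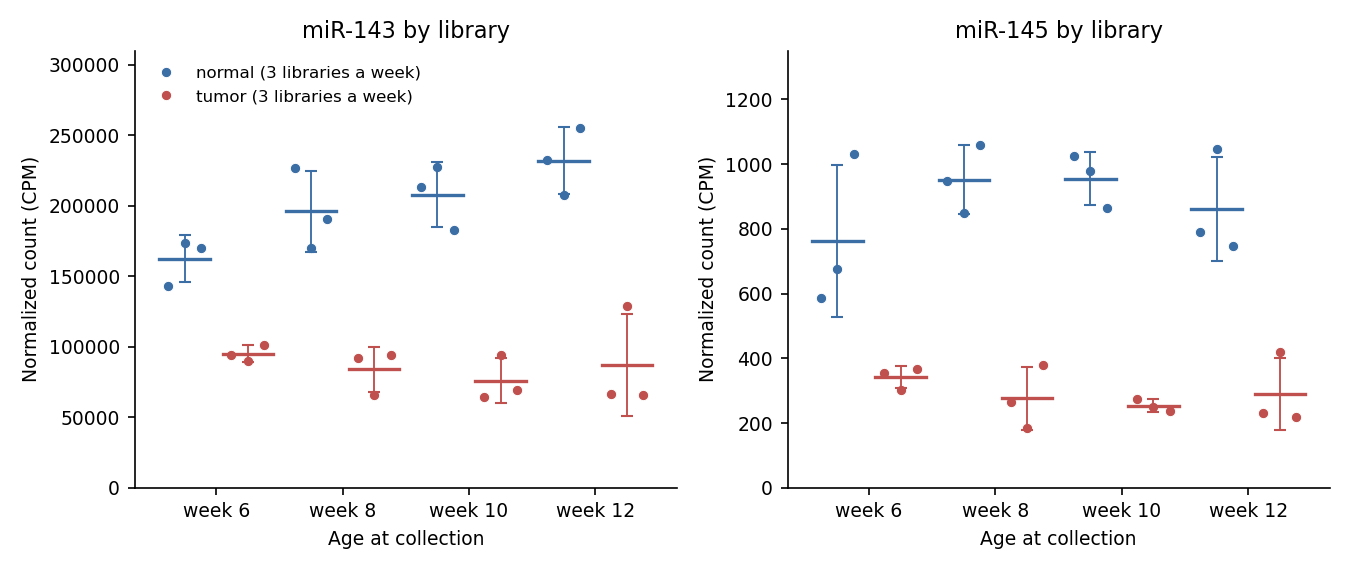
Normalized count of miR-143 (left, CPM) and miR-145 (right, CPM) in each of the 24 libraries by week, with normal libraries in blue and tumor libraries in red. Points are libraries, long bars group means and whiskers 1 SD (n = 3), and every tumor point lies below every normal point, the closest being 128680 against 143444 CPM for miR-143 and 418 against 586 CPM for miR-145.

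A split of all 12 tumor from all 12 normal libraries with tumor lower was seen for 9.7% of the 237 tested miRNAs, and in either direction for 28.3%. Within a week, 3 tumor libraries below 3 normal libraries were seen for 34.6%, 19.8%, 31.6% and 28.7% of the tested miRNAs at weeks 6, 8, 10 and 12, so that the split within 1 week was common in this table.

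The log2 fold changes of miR-145 over the 4 ages, in order, were -1.16, -1.81, -1.92 and -1.58, with standard errors of 0.25, 0.32, 0.16 and 0.30 (n = 3 per group). The adjusted p-values of edgeR's quasi-likelihood test were 0.00846, 0.00567, 1.26e-04 and 0.00421. For miR-143 the log2 fold changes were -0.77, -1.26, -1.47 and -1.44, with standard errors of 0.15, 0.28, 0.19 and 0.34 and edgeR adjusted p of 0.00551, 0.0121, 9.55e-04 and 0.0106. Under-expression in tumor at the same threshold was called for 29.5%, 13.5%, 27.4% and 21.5% of the tested miRNAs at weeks 6, 8, 10 and 12, and at all 4 weeks for 7.59%. Both members were among these 18 miRNAs. With same-numbered libraries taken as a block, an alternative given at the end, 68 of the 237 were called lower at week 8, against 32 without it. Without tumor replicate 2 of week 6, the edgeR adjusted p of week 6 was 0.0545 for miR-143 and 0.0521 for miR-145, and without tumor replicate 3 of week 12 that of miR-143 at week 12 was 0.0515.

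Averaged over the weeks in a fit of all 24 libraries, miR-145 fell to 32.9% of its normal level (log2 fold change -1.61, standard error 0.14, adjusted p = 2.38e-09 in edgeR) and miR-143 to 43.1% (log2 fold change -1.22, standard error 0.12, adjusted p = 1.23e-08 in edgeR). Counted from the most negative log2 fold change, they were the 15th and the 27th of the 237 tested miRNAs. In this fit 46.8% of the tested miRNAs were called lower in tumor and 38.8% higher, and the median log2 fold change of all of them was -0.15. Within each sequencing lane, the tumor-normal difference of same-numbered pairs was averaged by week, and the week means were then averaged with equal weight. This gave -1.41 for miR-143 and -1.65 for miR-145 on the log2 scale in lane 1, and -1.11 and -1.61 in lane 2. Lane 1 held most pairs of weeks 6 and 8, and lane 2 most pairs of weeks 10 and 12. Pairs thus did not count equally, and the order of the lanes is not interpreted. The tumor was lower in all 6 same-numbered pairs of each lane for both miRNAs.

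**Figure D2:**
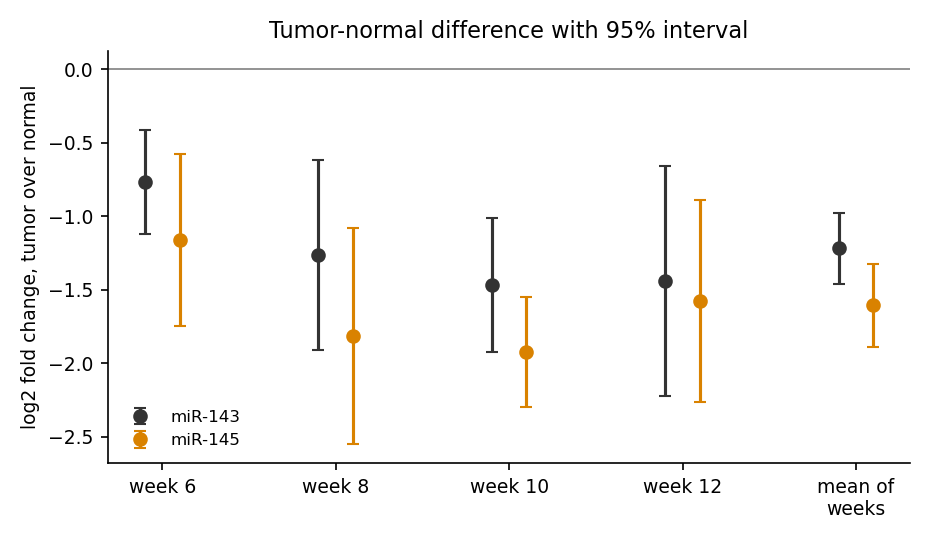
Log2 fold change of tumor over normal (vertical axis) at each week and averaged over the weeks, for miR-143 in black and miR-145 in orange. Points are edgeR estimates and bars 95% intervals, all of which lie below 0, with miR-145 at -1.61 and miR-143 at -1.22 on average.

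miR-143 took up a large part of each library. It was the most counted miRNA in all 12 normal libraries, with 15.6% to 24.7% of the counts (median 20.1%), and the most counted but for 1 or 2 others in tumors, with 5.43% to 11.8% (median 8.96%). The Wilson 95% interval of the lowest share was 5.38% to 5.47% and that of the highest 24.6% to 24.7%, for counting error only. miR-145 held between 0.0601% and 0.114% of the counts in normal libraries and between 0.0153% and 0.0392% in tumors, and its place among all miRNAs went from the 65th to 78th in normal libraries to the 89th to 115th in tumors. Because a miRNA of this abundance enters the library total, the scaling was repeated with both members left out of totals and TMM factors, and the average log2 fold changes were then -1.25 for miR-143 and -1.64 for miR-145.

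The pair did not fall by the same factor. Each library held far more miR-143 than miR-145 reads, and since ligation and amplification differ between small RNAs, this ratio is no measure of the molecules. Its change between groups does not depend on the scaling of the library. There were 165 to 342 miR-143 counts per miR-145 count in normal libraries (median 222.2) and 234 to 377 in tumors (median 295).

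At week 6 the ratio was 245, 258 and 165 in the normal libraries and 265, 296 and 278 in the hyperplasia libraries. At week 8 it was 239, 201 and 180 in normal glands and 348, 355 and 248 in adenomas. At week 10 it was 208.5, 233 and 211 in normal glands and 234, 377 and 294 in early carcinomas. At these ages every tumor library had the higher ratio, by a narrow margin at week 10. At week 12 the normal libraries had 294, 198.5 and 342 and the late carcinomas 286, 307 and 299, and the groups overlapped.

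The log2 ratio of miR-145 to miR-143 was lower in tumor by 0.38 on average over the weeks (1.30-fold), with -8.21 ± 0.20 in tumor and -7.82 ± 0.30 in normal glands (SD, n = 12; exact permutation test within weeks over 160000 arrangements, two-sided, p = 0.00172). The differences were -0.35, -0.60, -0.44 and -0.13 at weeks 6, 8, 10 and 12. For a single week the exact permutation p was 0.1 at weeks 6, 8 and 10, the smallest that 3 against 3 libraries can give, and 0.8 at week 12. The ratio was lower in tumor in 10 of the 12 same-numbered pairs. With 1 library left out in turn, the average difference stayed between -0.43 and -0.33, and the exact p between 7.5e-05 and 0.00489.

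**Figure D3:**
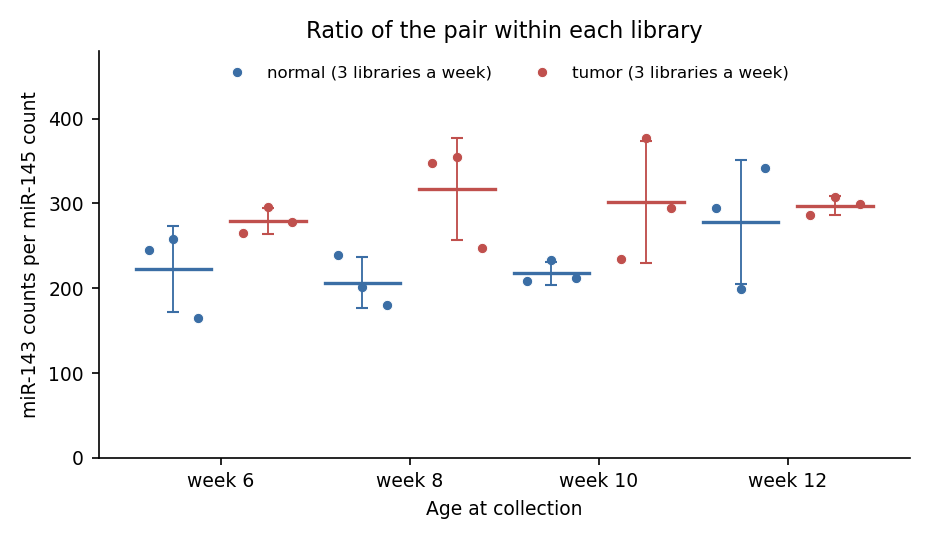
Number of miR-143 counts per miR-145 count (vertical axis) in each library by week, normal in blue and tumor in red, with group means and whiskers of 1 SD (n = 3). Tumor points lie above normal points at weeks 6, 8 and 10, while at week 12 the normal libraries spread from 198.5 to 342 around the tumor libraries.

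Along the time course of normal glands, miR-143 averaged 162473 ± 16599, 196029 ± 28577, 207970 ± 23160 and 231938 ± 23888 CPM at weeks 6, 8, 10 and 12 (SD, n = 3). Each mean was higher than the one before, but neighbouring ages overlapped. The log2 difference between weeks 12 and 6 was 0.51 (95% interval 0.04 to 0.99) and did not pass the threshold in edgeR (adjusted p = 0.123), where 21.1% of the tested miRNAs were called in either direction and 5.49% as higher. Its size moved with the scaling, to 0.21 with library sizes only. Leaving out any of 6 single libraries (normal replicate 2 of week 8 or 12, tumor replicate 3 of week 8, 2 of week 10, 2 or 3 of week 12) gave 0.51 to 0.82 with an edgeR adjusted p of 0.0190 to 0.0452.

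miR-145 in normal glands averaged 763 ± 235, 952 ± 105, 955 ± 82.9 and 861 ± 161 CPM at these ages (SD, n = 3), and the ages overlapped. Its log2 difference between weeks 12 and 6 was 0.17 (95% interval -0.38 to 0.73, adjusted p = 0.693 in edgeR).

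In tumors, miR-143 averaged 95234 ± 5879 CPM in hyperplasia, 83962 ± 15699 in adenoma, 76047 ± 15836 in early carcinoma and 86847 ± 36230 in late carcinoma (SD, n = 3). miR-145 averaged 342 ± 33.4, 277 ± 97.4, 254 ± 19.8 and 290 ± 112 CPM at the same stages. Both means were lowest at week 10. All stages overlapped for miR-143, and for miR-145 all but hyperplasia and early carcinoma, where each library of week 10 lay below each library of week 6. Late carcinoma minus hyperplasia was -0.13 for miR-143 (95% interval -0.61 to 0.34) and -0.24 for miR-145 (95% interval -0.79 to 0.32) on the log2 scale, with edgeR adjusted p of 0.725 and 0.568, in a comparison in which 7.59% of the tested miRNAs were called.

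Neither member passed the threshold in any comparison of consecutive weeks, in normal glands or in tumors, where 0.422% of the tested miRNAs were called from week 6 to 8 in normal glands and 0 in the other 5 comparisons (1 to 27 at an unadjusted edgeR p under 0.05). Joint tests over the weeks gave edgeR adjusted p of 0.480 for miR-143 and 0.794 for miR-145 in normal glands, where 13.9% were called, and of 0.880 and 0.847 in tumors, where 0 were called (39 at an unadjusted p under 0.05). The tumor-normal difference of miR-143 was larger at week 12 than at week 6 by 0.65 on the log2 scale, with a 95% interval from -1.32 to 0.03 for the change (adjusted p = 0.391 in edgeR, 0.422% of the tested miRNAs called). For miR-145 the change was -0.41 (95% interval -1.19 to 0.37, adjusted p = 0.516 in edgeR). A joint test over the 4 weeks gave an edgeR adjusted p of 0.938 for both (unadjusted 0.166 and 0.236), and called 0 of the 237 miRNAs (9 at an unadjusted p under 0.05).

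The spread between mice was described with no test. Within weeks, the SD of miR-143 on the log2 scale was 0.17 in normal glands, where 18 of the 237 tested miRNAs had a smaller one and the median was 0.40. In tumors it was 0.35, against a median of 0.31, and it rested on replicate 2 of week 12, without which it was 0.22, below the median. For miR-145 the SD was 0.27 in normal glands and 0.37 in tumors, and 53 and 151 miRNAs had a smaller one, and without that library it was 0.29 in tumors.

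Across tumors, libraries with more miR-143 also had more miR-145. Over the 12 tumor libraries, Pearson's r of the log2 CPM was 0.83 (permutation p = 0.00134, 0.00268 after adjustment over the 2 genotypes) and Spearman's rho 0.74 (permutation p = 0.00782, adjusted 0.0156). Without the 2 libraries farthest from the median of miR-143, r was 0.84, and within lanes 1 and 2 it was 0.71 and 0.87. With week means removed, r was 0.80 (exact permutation within weeks p = 0.0471, adjusted 0.0941). Over the 12 normal libraries r was 0.36 and rho 0.08 (permutation p = 0.253 and 0.817), and r was 0.23 without the 2 farthest libraries. Within lanes 1 and 2 of the normal libraries r was 0.76 and -0.58. Whether the relation differs between tumor and normal was not tested, and both values of a library share its scaling.

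**Figure D4:**
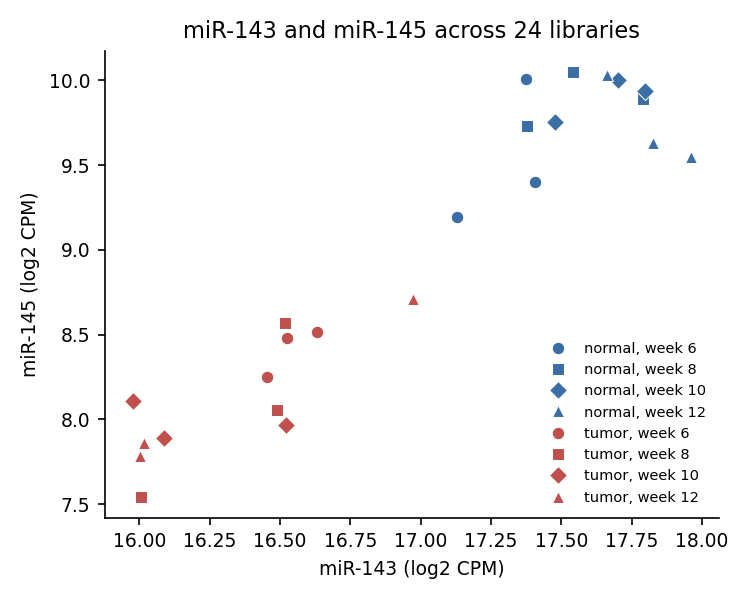
log2 CPM of miR-143 (horizontal axis) against miR-145 (vertical axis) in 24 libraries, normal in blue and tumor in red, with a marker shape for each week. The tumor libraries lie along a rising line (r = 0.83), the normal libraries form a separate cloud (r = 0.36), and the second late carcinoma library is the tumor point nearest to the normal ones.

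Likeness to other miRNAs was measured by the mean of r over the 12 normal and r over the 12 tumor libraries, as a description. miR-139, which is enriched in endothelium, was most like miR-143 (mean r 0.76), followed by miR-150, a lymphocyte miRNA (0.75), miR-708 (0.73), miR-10a (0.67) and miR-103 (0.65). Most like miR-145 was miR-16 (0.77), followed by miR-130a (0.76), miR-350 (0.71), miR-335 (0.69) and miR-196b (0.68). Each member came only 11th in the other's list of 236 miRNAs, with a mean r of 0.59. All 10 of these miRNAs were called lower in tumor over the weeks, as were 46.8% of all tested miRNAs, with log2 fold changes from -2.66 for miR-708 to -0.53 for miR-16. Without normal replicate 2 of week 12 or 3 of week 6, miR-196b was no longer called (-1.32 and -1.75 against -2.13, edgeR adjusted p = 0.120 and 0.0609). In normal libraries miR-196b was either at 3.70 to 112 CPM or at 400 to 637 CPM. miR-145 was at 586 to 863 CPM in the former and at 949 to 1059 CPM in the latter. Tumors with 3.02 to 38.8 CPM of miR-196b had 186 to 356 CPM of miR-145. Those with 76.2 to 147 CPM had 249 to 418 CPM, so the ranges overlapped. This was seen after the fact, and its cause was not tested.

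The mature forms of the most alike miRNA of each member are given from RefSeq (GRCm38.p6), with the seed, bases 2 to 8, in capitals, to show what the table may combine under a name.
miR-139-5p: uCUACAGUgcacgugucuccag
miR-139-3p: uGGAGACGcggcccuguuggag
miR-16-5p: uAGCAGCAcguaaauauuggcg
miR-16-1-3p: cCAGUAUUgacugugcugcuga
miR-16-2-3p: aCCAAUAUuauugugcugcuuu
The 5 forms have 5 different seeds, so the 2 miRNAs most alike to the pair by mean r share no seed with each other. In RefSeq the name miR-16 covers a hairpin on chromosome 14 and another on chromosome 3, and which of them the table's entry counts is not stated.

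The pair was set beside listed miRNAs of other cell types. All 12 listed miRNAs of fibroblasts and stroma were called lower in tumor over the weeks (median log2 fold change -1.11), beside 46.8% of all tested miRNAs (median -0.15), with miR-10b at -1.83 (standard error 0.14) and miR-10a at -1.04 (0.15). The list had 10, 9, 11 and 11 of 12 called lower at weeks 6, 8, 10 and 12, beside 29.5%, 13.5%, 27.4% and 21.5% of all tested miRNAs. Its summed level was 245395 to 429405 CPM in normal and 70883 to 155169 CPM in tumor libraries. Most of this sum was miR-10b and miR-10a, with means of 95044 and 57024 CPM over all libraries, the next being miR-125b at 19558 CPM. The study's supplement, citing earlier work, places miR-10b and miR-199a in the epithelium of normal mouse mammary glands. The list is thus not particular to stroma, and its counts and sums are no measure of stromal cells alone. Both endothelial miRNAs were called lower, miR-126 at -1.25 (0.14) and miR-139 at -1.46 (0.17), with summed levels of 20677 to 37786 CPM in normal and 6612 to 18373 CPM in tumor libraries. The luminal epithelial list went the other way, with 10 of 10 called higher over the weeks (median 2.10) and at each week, when 29.1%, 21.9%, 32.9% and 29.1% of all tested miRNAs were called higher. The most abundant were miR-148a (1.82, standard error 0.13) and miR-182 (2.02, standard error 0.09). In these bulk tissues, fewer smooth muscle, stromal or myoepithelial cells and less of the pair per cell cannot be told apart.

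Basal epithelium, the layer of the myoepithelial cells, was represented by miR-205 and miR-203. miR-205 had a log2 fold change of 0.29 over the weeks (standard error 0.29, adjusted p = 0.333 in edgeR), and miR-203, of differentiating epithelium, was called lower at -0.70. The sizes of both moved with normal replicate 2 of week 12. That library had 8474 CPM of miR-203, against 875 to 2278 CPM in the other normal libraries. Its 7288 CPM of miR-205 was also the highest of the normal libraries. Without that library miR-203 was still called lower, at -0.45 (edgeR adjusted p = 0.00584), and miR-205 was called higher at 0.57 (edgeR adjusted p = 0.0225). miR-221 and miR-222, also on that list, were listed at 0 in every library. Apart from this basal list, no smooth muscle or myoepithelial marker was set beside the pair, so the cell type it came from was not checked.

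In the remaining lists, counts over the weeks stand beside the 46.8% of all tested miRNAs called lower. Over the weeks, 4 of the 4 tested skeletal muscle miRNAs (of 7 listed) were called lower. At weeks 6, 8, 10 and 12 it was 0, 1, 0 and 4 of them, beside 29.5%, 13.5%, 27.4% and 21.5% of all tested miRNAs. Their levels were uneven, with sums of 5637 to 118721 CPM in normal libraries. miR-133a was at -2.91 (standard error 1.10) and miR-486, also of red cells, at -1.23. With the replicate number as a block, 2 of these 4 were called. Without normal replicate 3 of week 10, miR-133a was at -1.18, and without normal replicate 1 of week 12 at -1.84, neither called (edgeR adjusted p = 0.229 and 0.0920), while without tumor replicate 3 of week 10 it was at -4.47. Both erythroid miRNAs were called lower over the weeks, miR-451 at -1.28 and miR-144 at -0.90. Week by week, 1, 0, 1 and 2 of the 2 were called lower. Their sums were 2125 to 5439 CPM in normal and 434 to 2634 CPM in tumor libraries. Of the 4 tested leukocyte miRNAs (of 5), 2 were called lower over the weeks, a share near the 46.8% of all tested miRNAs, miR-150 at -2.05 and miR-146a at -0.58. miR-142, found in all leukocytes, had -0.13 (adjusted p = 0.233 in edgeR), and was called lower at -0.26 without tumor replicate 1 of week 12 or 2 of week 6. Of the 3 tested adipocyte miRNAs (of 4), 2 were called lower, miR-378 at -1.20 and miR-365 at -0.38. miR-193b, the second most abundant of them, went the other way at 0.36 (adjusted p = 0.0564 in edgeR), and was called higher with the block and without normal replicate 1 of week 8 (0.48), normal replicate 1 of week 12 (0.48) or tumor replicate 3 of week 6 (0.39). The part of any of these cell types in the fall of miR-143 and miR-145 was not tested.

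**Figure D5:**
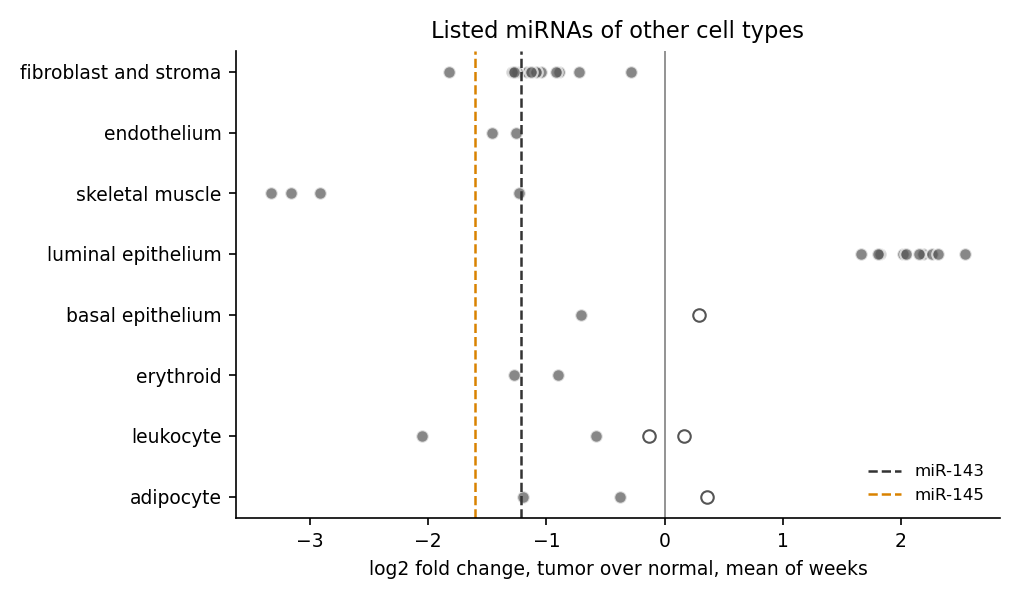
Log2 fold change of tumor over normal averaged over the weeks (horizontal axis) for the tested miRNAs of 8 cell type lists (rows), filled where the edgeR adjusted p was under 0.05 and open otherwise. Dashed lines mark miR-143 (-1.22) and miR-145 (-1.61). miR-143 falls within the stromal list, and also beside miR-486 (-1.23), miR-451 (-1.28) and miR-378 (-1.20) of the muscle, erythroid and adipocyte lists. miR-145 is lower than both endothelial miRNAs and than all stromal ones but miR-10b (-1.83). The luminal epithelial miRNAs lie on the other side of 0.

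Within libraries, each member was then compared with miR-10b and miR-199a of the stromal list and miR-126 of the endothelial list. These 6 ratios were chosen after seeing the data. The ratio of miR-145 to miR-199a was lower in tumor by 0.51 on the log2 scale (exact permutation test within weeks, two-sided, p = 0.00175, adjusted over the 6 ratios 0.00525), and lower in 10 of the 12 same-numbered pairs. Against miR-126 the difference of miR-145 was -0.36 (exact p = 0.0338, adjusted 0.0675), again lower in 10 of 12 pairs. The ratio of miR-143 to miR-10b was higher in tumor by 0.62 (exact p = 1.25e-04, adjusted 7.5e-04), so that miR-143 fell less than miR-10b. The differences of miR-143 were -0.13 against miR-199a and 0.03 against miR-126 (exact p = 0.252 and 0.826, adjusted 0.303 and 0.826), and that of miR-145 against miR-10b was 0.24 (exact p = 0.0694, adjusted 0.104).

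Replicate 2 of week 12 was the late carcinoma library with the highest levels of the pair. Its stromal list, mostly miR-10a and miR-10b, summed to 128634 CPM, against 103226 and 78937 CPM in replicates 1 and 3. The endothelial list summed to 11745 CPM there, against 12697 and 8639 CPM. The luminal list summed to 421014 CPM, between the 317927 and 492443 CPM of the other two. Without that library the log2 fold change of week 12 was the most negative of the 6 fits that left out 1 library, at -1.71 for miR-143 and -1.83 for miR-145.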

How the data were processed

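Small RNA libraries were made by the authors from total RNA of frozen mammary tissue (TruSeq small RNA kit) and sequenced. Per the labels, reads were aligned with Bowtie to mm9, while the study's methods name mm10. The authors deposited raw counts per miRNA name, with no arm given, for 510 miRNAs in 24 libraries, of which 364 had at least 1 count. Positions are from the mm9 gene annotation, and printed mature sequences from RefSeq.

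Counts were tested with edgeR 4.0.16 (R 4.3.3) in quasi-likelihood fits with TMM factors, on the 237 miRNAs kept by filterByExpr over the 8 groups. Each week was fitted on its own 6 libraries, and averages, time courses and changes between weeks on all 24. Printed CPM are TMM-scaled over all 24 libraries. P-values were adjusted by Benjamini-Hochberg over all tested miRNAs. Ratios of counts (0.5 added to each) were tested by exact permutation in numpy 2.4.6, and correlations by 100000 permutations. Cell type lists were described by counts and medians, with no set test. Named miRNAs were the members, the 5 most alike to each, the 2 most abundant of each list, and others where their call or a level of 0 was needed.

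The members and lists were chosen with earlier results of these data known. Alternatives were DESeq2 1.42.0 (size factors and Wald test), library sizes only, scaling without the members, other filters, edgeR's classic exact test, sequencing lane, a replicate block, 1 fit of all libraries, and leaving out each library, which for listed miRNAs and the spread was added after seeing the data. On simulated data of the 237 miRNAs, the fit over all weeks recovered 76.7% of changes of 1 and 100% of changes of 2 on the log2 scale, and that of a single week 30.8% and 92.5%. False calls made up 8.62% and 5.73% of the calls of these fits, above the adjusted p threshold of 0.05. Totals per library were 1626022 to 3931375 in normal and 1032241 to 2213972 in tumor. Intervals of shares cover counting error only, since reads had no molecular identifiers.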

Additional observations from a re-analysis of the deposited data

How the results depend on the processing

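Under-expression of both members in tumor passed the threshold at every week and on average under every alternative of scaling, filter, test, lane, block and joint fitting. The average log2 fold change ran from -1.31 to -1.16 for miR-143 and from -1.69 to -1.55 for miR-145. With 1 library left out, week 6 ran from -0.85 to -0.66 for miR-143 and from -1.32 to -0.88 for miR-145, and week 12 from -1.71 to -1.28 for miR-143, each losing the call once, as given above. Time courses within a genotype were not called with all libraries in, and the direction of some was less stable. The largest of those given, miR-143 in normal glands at 0.51 for week 12 minus 6, stayed positive under every alternative. It passed the threshold in 6 of the 24 fits that left out 1 library, as given above. With library sizes only, in normal glands, miR-145 turned to -0.090 (week 12 minus 6) and -0.022 (week 10 minus 8), and miR-143 to -0.047 (week 12 minus 10). With 1 library left out, in normal glands, miR-143 ran from 0.43 to 0.82 for week 12 minus 6 and from -0.015 to 0.27 for week 10 minus 8, and miR-145 from -0.069 to 0.088 for week 10 minus 8. In tumors miR-143 ran from -0.53 to 0.11 for week 12 minus 6 and from -0.21 to 0.36 for week 12 minus 10, and miR-145 from -0.17 to 0.35 for week 12 minus 10 and from -0.25 to 0.20 for week 10 minus 8. The cause was not tested.

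Tumor and normal libraries of the same replicate number and week shared a sequencing lane in 12 of 12 pairs, each lane holding 12 libraries, and no shared animal, litter or day is stated. Their deviations correlated over miRNAs at 0.406 on average, against -0.184 for other numbers of the week. Of the 12 pairs, 10 were over 0.1 and the lowest was at 0.03. Same-numbered libraries were thus more alike on average than others of the week, and the main tests do not use this. The pairing was run as an alternative, with a replicate block. With that replicate block the average log2 fold change was -1.24 for miR-143 and -1.62 for miR-145, the weekly values were -0.77, -1.26, -1.48 and -1.50 for miR-143 and -1.12, -1.87, -1.92 and -1.63 for miR-145, and the exact permutation p of their ratio was 0.00439. The block changed no call of the members. It raised the miRNAs called at week 8 from 84 to 131, and those called lower there from 32 to 68. At weeks 6, 10 and 12 those called lower went from 70 to 71, 65 to 78 and 51 to 51. In the lists it lowered those called in skeletal muscle from 4 to 2 and called 1 adipocyte miRNA higher.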
